A study of Mus musculus with 4 samples.

Results

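The 8 genes described here encode apolipoproteins and proteins of lipoprotein assembly: Apoa1, Apoa4, Apoc3, Apod, Apoe, Apom, Mttp and Clu. They were taken as a fixed list of symbols, which was chosen with earlier results of these data known. Every probe set that the array annotation lists under 1 of these symbols alone was read. This gave 18 probe sets for 8 of the 18193 genes on the array. All 8 genes were at or over the detection floor, the 40th percentile of all signals (log2 5.72), in 1 or more arrays. Of the 18 probe sets, 2 were below it in 1 or more arrays, both of Apod. In counts of genes, higher or lower means a difference of 2-fold or more, 1 on the log2 scale. Whole-kidney RNA had been hybridised from mice labelled Tet2KO after ischemia-reperfusion (IR), mice labelled Tet2KO after sham surgery, wild-type mice after IR and wild-type mice after sham surgery. IR was 60 min of renal ischemia and 24 h of reperfusion, and all 4 groups were male C57Bl/6 mice kept free of specific pathogens. Each group was 1 array of RNA pooled from 3 mice, so there is no replicate check and no test, and having only 4 arrays limits how precise any value can be. Their age and the way the Tet2 allele was made are not given in the sources used here.

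Apolipoproteins are the protein part of lipoproteins. Apoa1 and Apoa4 form and stabilise high-density particles, and Apoc3 slows the clearance of triglyceride-rich ones. Mttp, the microsomal triglyceride transfer protein, loads lipid onto Apob in the endoplasmic reticulum. In the kidney the proximal tubule takes filtered apolipoproteins back up through the receptors megalin (Lrp2) and cubilin (Cubn), and Clu, clusterin or apolipoprotein J, is a secreted chaperone known as a marker of tubular damage. The Tet2 protein oxidises methylated cytosines, which in mammalian DNA lie mostly in CG pairs.

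The log2 signals of Tet2 did not separate the labelled genotypes after sham surgery: on its 2 probe sets the knockout-labelled array differed from the wild-type one by -0.09 and 0.41 after sham and by -0.41 and -0.70 after IR. Where these probe sets lie relative to the deleted part was not known, so the groups are called knockout-labelled (KO in the figures). The arrays had between 59.7% and 60.4% of probe sets at or over the floor. The kidney markers Lrp2 and Slc34a1, a phosphate transporter of the proximal tubule, had log2 signals from 11.2 to 13.5 in all 4 arrays. Probe sets that read 1 gene give a technical SD of its log2 ratio, which was 0.39 for IR over sham in the knockout-labelled pair, 0.24 in the wild-type pair, 0.19 between the sham arrays, 0.32 between the IR arrays and 0.37 for the difference of the responses. It does not cover differences between mice, pools, RNA preparations or hybridisations, which the probe sets of 1 array share.

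The promoters of 4 of the 5 members whose transcripts differed at least 2-fold between the IR arrays are shown; for the other, Apoc3, no window was used here. They are shown because CG pairs, marked in capitals, are where Tet2 is known to act. Each is the 250 bases before the annotated gene start in RefSeq, mouse build GRCm38.p6, 5′ to 3′ on the gene's own strand.
Apoa4 (chr9:46240594-46240843, + strand): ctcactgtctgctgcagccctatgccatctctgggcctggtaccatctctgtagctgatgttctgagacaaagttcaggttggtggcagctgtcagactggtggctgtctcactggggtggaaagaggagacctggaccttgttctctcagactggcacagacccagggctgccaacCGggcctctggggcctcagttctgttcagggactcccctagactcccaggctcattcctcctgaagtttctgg
Apoa1 (chr9:46228380-46228629, + strand): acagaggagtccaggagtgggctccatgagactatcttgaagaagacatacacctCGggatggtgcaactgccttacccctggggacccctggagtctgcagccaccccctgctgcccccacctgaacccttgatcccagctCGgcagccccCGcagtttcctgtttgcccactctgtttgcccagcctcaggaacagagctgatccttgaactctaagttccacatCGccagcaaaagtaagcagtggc
Apom (chr17:35131802-35132051, - strand): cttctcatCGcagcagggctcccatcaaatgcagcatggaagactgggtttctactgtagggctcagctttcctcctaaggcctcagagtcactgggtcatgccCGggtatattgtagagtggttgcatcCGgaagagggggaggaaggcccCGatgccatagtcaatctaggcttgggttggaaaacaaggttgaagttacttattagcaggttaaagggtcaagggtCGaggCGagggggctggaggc
Mttp (chr3:138143419-138143668, - strand): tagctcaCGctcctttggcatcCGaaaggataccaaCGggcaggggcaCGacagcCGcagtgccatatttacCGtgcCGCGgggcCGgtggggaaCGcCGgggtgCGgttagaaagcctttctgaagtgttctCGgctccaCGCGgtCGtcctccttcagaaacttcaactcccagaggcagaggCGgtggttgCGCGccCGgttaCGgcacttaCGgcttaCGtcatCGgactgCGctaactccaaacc
The Apoa4 window held 1 CG pair, that of Apoa1 4, that of Apom 6 and that of Mttp 25, against a median of 6 over the 32851 windows of the table. Of all windows 89.3% had fewer CG pairs than that of Mttp, and 7.87% fewer than that of Apoa4. Among the windows of 6 members, a motif of the HNF4 type, CAAAGNNCA on either strand, was found in 1, as CAAAGTTCA from 182 to 174 bases before the Apoa4 start, and 5.49% of all windows held it. Motifs of the AP-1 type (TGANTCA, in 6.75% of all windows), the HNF1 type (0.00913%) and the heat shock element (0.466%), on either strand, were in 0 of the 8 member windows, of which Apoe has 3. With 1 match in all, no motif overlapped another. A match is a description of letters and not of a bound site.

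Apoa4, Apoc3 and Apoa1, which lie side by side on chromosome 9, were all 2-fold or more higher after IR in the wild-type pair. In the knockout-labelled pair none of them reached 2-fold: the log2 ratio of IR over sham was -0.86 for Apoa4, -0.997 for Apoc3 and 0.17 for Apoa1. Apoa4 had a log2 signal of 6.84 in knockout-labelled IR against 7.70 in knockout-labelled sham, and 10.89 in wild-type IR against 7.53 in wild-type sham. The wild-type IR array alone was high, and the other 3 arrays lay within 0.86 of each other. Wild-type IR over sham was 10.3-fold, rank 6 from the highest of 13531 measured genes. Knockout-labelled IR was 1.81-fold below its sham array, rank 1215 from the lowest of 13600. Between the IR arrays the knockout-labelled one was 16.6-fold lower, rank 2 from the lowest of 13492 genes. The second probe set of Apoa4 gave log2 signals of 7.20 and 8.63 in the knockout-labelled IR and sham arrays and 11.65 and 8.49 in the wild-type IR and sham arrays, so the knockout-labelled pair was 2.69-fold lower after IR on it and the wild-type pair 8.90-fold higher. In whole-kidney RNA, fewer cells of a type and less RNA per cell cannot be told apart.

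Apoc3, read by 1 probe set, had a log2 signal of 9.74 in knockout-labelled IR against 10.74 in knockout-labelled sham, and 12.59 in wild-type IR against 9.99 in wild-type sham. It was 6.08-fold higher after IR in wild type, rank 18 from the highest. In the knockout-labelled pair it was 1.996-fold lower after IR, just short of 2-fold and rank 941 from the lowest of 13600. With the sham array of the other genotype as control, the log2 ratio of Apoc3 was -0.25 for knockout-labelled IR, under the technical SD of 0.39, and 1.85 for wild-type IR. Between the IR arrays the knockout-labelled one was 7.21-fold lower, and between the sham arrays it was 1.68-fold higher. Apoc3 was thus highest in wild-type IR and lowest in knockout-labelled IR, with both sham arrays between them.

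Apoa1 had a log2 signal of 6.77 in knockout-labelled IR against 6.60 in knockout-labelled sham, and 8.09 in wild-type IR against 6.42 in wild-type sham. Its 4 probe sets agreed in direction: after IR in wild type they were 3.14-fold to 6.99-fold higher, and after IR in the knockout-labelled pair 1.05-fold to 1.23-fold higher, below the technical SD of that pair. Between the IR arrays the knockout-labelled one was 2.50-fold to 5.09-fold lower on the 4 probe sets. The sham and knockout-labelled IR values of Apoa1 lie within about 1 log2 unit of the floor, and the size of its fold differed with the probe set. The difference between the responses of the genotypes, knockout-labelled minus wild type, was -4.22 on the log2 scale for Apoa4, rank 3 from the lowest of 13808 genes, -3.60 for Apoc3, rank 6, and -1.49 for Apoa1, rank 250.

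**Figure D1:**
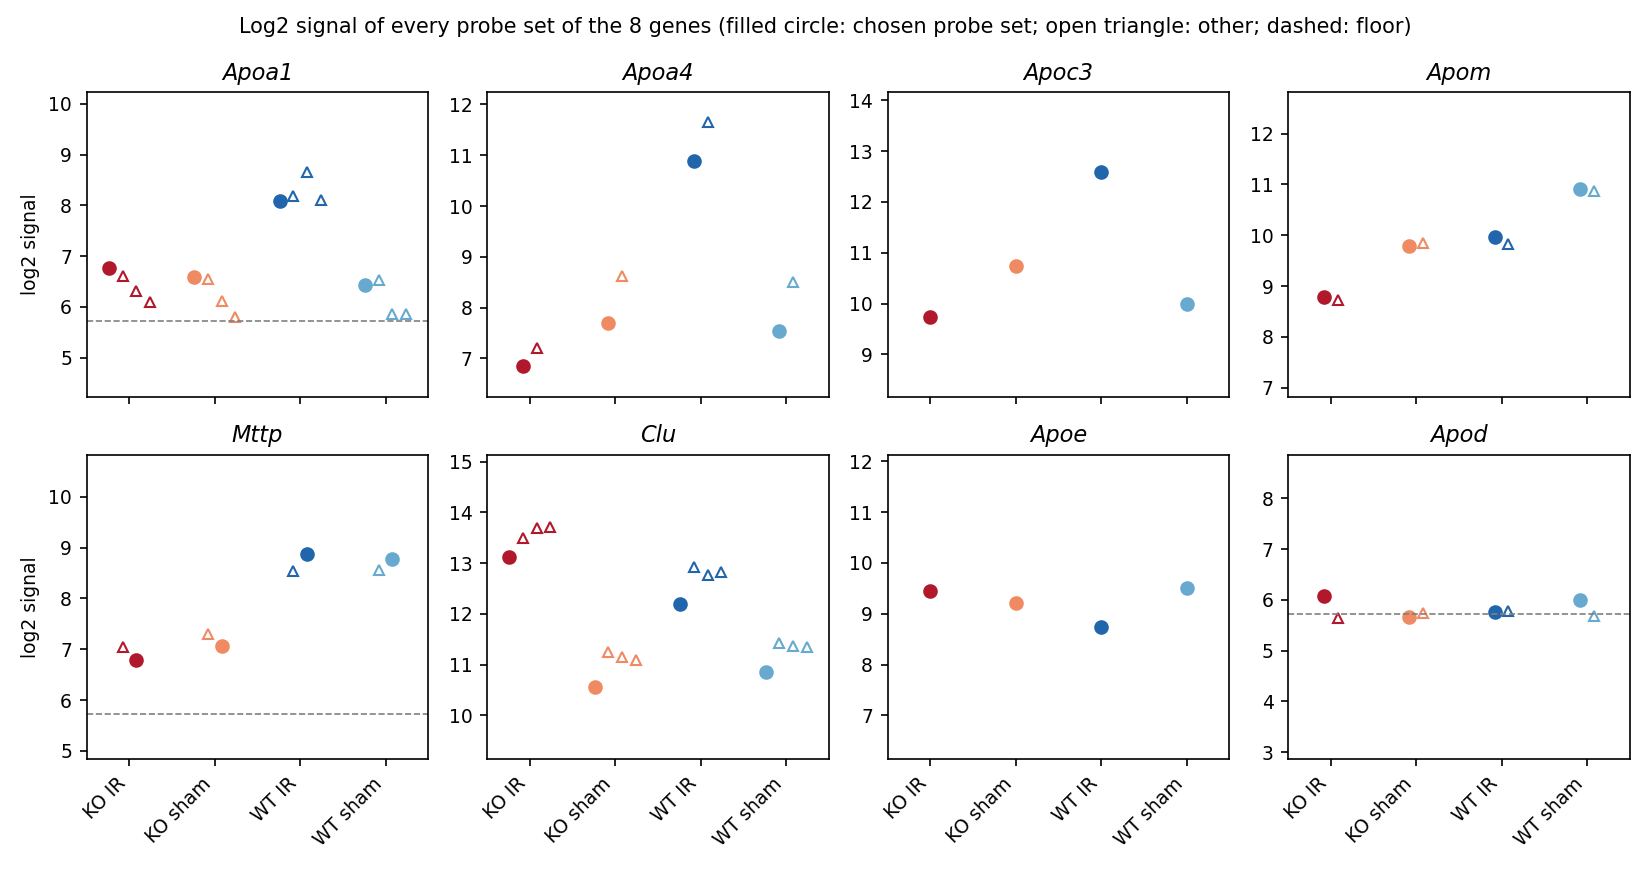
Log2 signal (vertical axis, 6 log2 units in each panel) of every probe set of the 8 genes in the 4 arrays, 1 array per group. Apoa1, Apoa4 and Apoc3 are high in wild-type IR alone, Apom is highest in wild-type sham and lowest in knockout-labelled IR, Mttp is lower in both knockout-labelled arrays, Clu is high in both IR arrays, and Apod lies around the floor of 5.72 (dashed line).

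Of the 13323 genes measured in both pairs, 13 genes, or 0.0976%, were 2-fold or more higher after IR in wild type and not higher after IR in the knockout-labelled pair, and Apoa4 and Apoc3 are among them. This class has the pattern of Apoa4 and Apoc3, so its size is no test of them. Apoa1, with a log2 ratio of 0.17 in the knockout-labelled pair, falls outside it. By comparison, 202 genes, 1.52%, were 2-fold or more higher in both pairs, Clu among them.

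**Figure D2:**
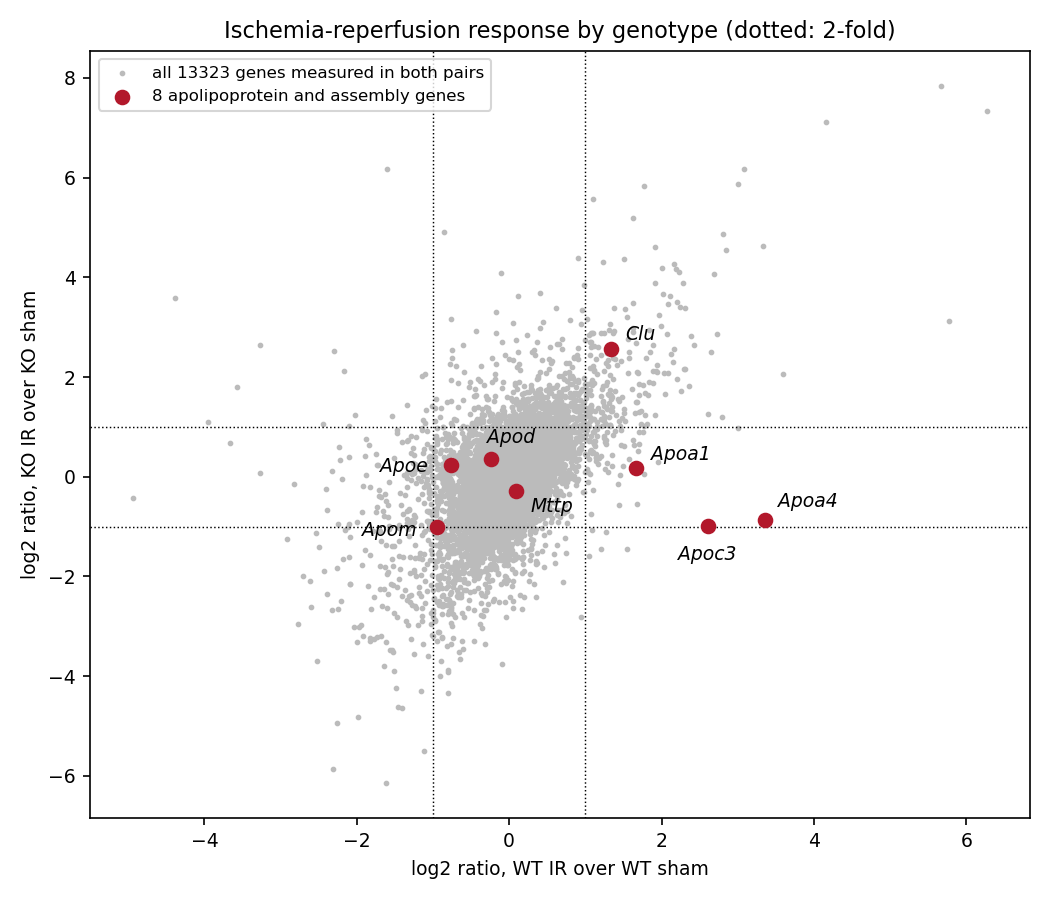
Log2 ratio of IR over sham in the knockout-labelled pair (vertical axis) against that in the wild-type pair (horizontal axis) for the 13323 genes measured in both, 1 point per gene, with the 8 members named. Apoa4 and Apoc3 lie at 3.36 and 2.60 in wild type and below 0 in the knockout-labelled pair, and Clu is above 1 in both.

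Of the measured neighbours on chromosome 9, none was 2-fold higher after IR in wild type. Apoa5, the next gene of the cluster after Apoa4, which promotes triglyceride clearance, had log2 signals of 6.22 in knockout-labelled IR, 6.28 in knockout-labelled sham, 6.17 in wild-type IR and 6.22 in wild-type sham. Sik3, a kinase gene on the side of Apoa1, had log2 ratios of IR over sham of -0.19 in the knockout-labelled pair and 0.05 in wild type, and Zpr1 beyond Apoa5 had 0.89 and 0.24. The following 2 genes farther out were at 2-fold or more, in other directions: Tagln, a smooth muscle gene, had log2 ratios of 2.05 in the knockout-labelled pair and -1.10 in wild type, and the adhesion gene Cadm1 1.83 and -0.33. These neighbours were looked up after the values of the members were seen.

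**Figure D3:**
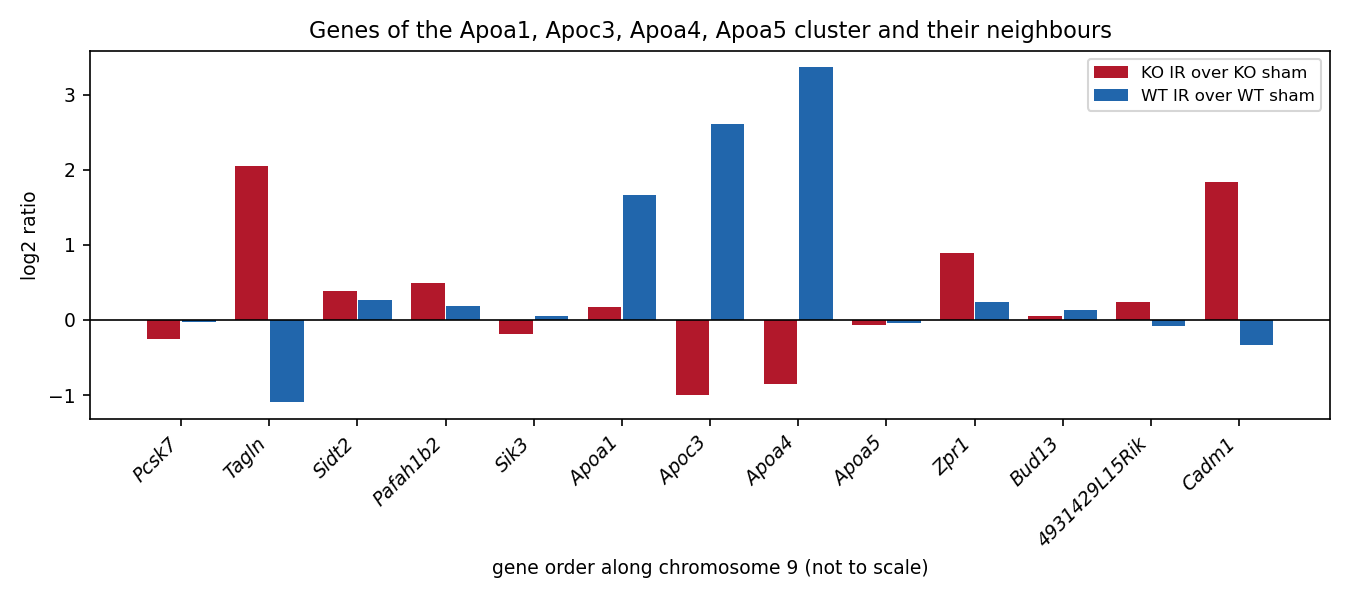
Log2 ratio of IR over sham (vertical axis) in the knockout-labelled pair and in the wild-type pair for the 13 measured genes among the cluster and its 5 protein-coding neighbours on each side, in gene order. Wild-type bars stand out at Apoa1 (1.67), Apoc3 (2.60) and Apoa4 (3.36) and not at Apoa5 (-0.04).

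Liver makes most circulating apolipoproteins, so liver genes were read beside these values. Albumin, Alb, had log2 signals of 6.45 in knockout-labelled IR, 6.56 in knockout-labelled sham, 6.45 in wild-type IR and 6.43 in wild-type sham, all within 1 log2 unit of the floor. Of 14 hepatocyte genes on the array, a list that also holds Apob and Apoh, 6 were below the floor in all 4 arrays (Ahsg, Cps1, F2, Hpx, Mup3 and Cyp3a11). In wild type, 1 of the 8 measured was higher after IR, the fibrinogen chain Fgb, and 1 was lower, Ttr. The list median was -0.42 in the knockout-labelled pair and 0.17 in wild type. Apob had log2 ratios of IR over sham of -1.54 in the knockout-labelled pair and 0.75 in wild type, and Apoh -0.53 and 0.39. Apoa4 and Apoc3 also had ratios of opposite sign. Between the IR arrays 2 of 8 were lower in the knockout-labelled one, Apob and Apoh, and 1 was higher, with a median of -0.60. Of all genes 3.99% were lower there and 3.68% higher. Fgb was higher in both genotypes, by at least 58.5-fold in the knockout-labelled pair and at least 8.03-fold in the wild-type pair, and is also made by injured tubules. The summed linear signal of the list was 14956 in knockout-labelled IR, 22413 in knockout-labelled sham, 18614 in wild-type IR and 27149 in wild-type sham. The part of liver-type transcripts in the values of the members was not tested.

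Apom and Mttp were lower in both knockout-labelled arrays than in the wild-type arrays of the same treatment. Apom, which carries sphingosine-1-phosphate on high-density particles and is made in the proximal tubule, had a log2 signal of 8.78 in knockout-labelled IR against 9.79 in knockout-labelled sham, and 9.97 in wild-type IR against 10.92 in wild-type sham. Its 2 probe sets ordered the arrays alike at both ends: highest in wild-type sham, lowest in knockout-labelled IR, with knockout-labelled sham and wild-type IR between them. IR over sham was 2.02-fold lower in the knockout-labelled pair and 1.93-fold lower in wild type, and the responses differed by -0.06 on the log2 scale. The knockout-labelled array was 2.18-fold lower after sham and 2.27-fold lower after IR. With the sham array of the other genotype as control, the log2 ratio of Apom was -2.14 for knockout-labelled IR and 0.17 for wild-type IR, so a fold of IR over sham for Apom holds only within a genotype.

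Mttp had a log2 signal of 6.79 in knockout-labelled IR against 7.07 in knockout-labelled sham, and 8.87 in wild-type IR against 8.78 in wild-type sham. It was split by genotype and not by treatment: IR and sham differed by 1.21-fold in the knockout-labelled pair and 1.07-fold in wild type. The knockout-labelled array was 3.28-fold lower after sham, rank 30 from the lowest of 13474 genes, and 4.25-fold lower after IR. The second probe set of Mttp gave 2.38-fold and 2.85-fold. With the sham array of the other genotype as control its log2 ratio was -1.99 for knockout-labelled IR and 1.81 for wild-type IR. Apom and Mttp were 2 of 16 genes, or 0.122% of the 13158 measured, that were lower at 2-fold or more in the knockout-labelled array both after sham and after IR. That class has the pattern of Apom and Mttp, so its size is no test of them.

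Mttp lies on chromosome 3, as Tet2 does, with 21 protein-coding genes between them. This was looked up after the values were seen. The strain origin of the DNA around the Tet2 allele is not given in the sources used here, so the labelled genotype and any difference in the sequence around the allele cannot be told apart for Mttp. Of the 14 measured genes in between, 0 differed 2-fold between the sham arrays, where knockout-labelled over wild type ran from -0.75 to 0.82 on the log2 scale. Between the IR arrays 2 of the 14 were lower, the metal transporter Slc39a8 (-1.85) and the dehydrogenase Bdh2 (-1.09), and 1 was higher, the endothelial gene Emcn (1.93). Of all genes 1.03% differed 2-fold between the sham arrays, and 3.99% were lower and 3.68% higher between the IR arrays. On the other side of Tet2, Ints12 had log2 ratios of -1.62 after IR and -0.04 after sham, and Ppa2 -0.83 and 0.10. Farther out, Npnt had 0.47 and -0.32, and Gstcd -0.08 and 0.11. Trmt10a, a tRNA methyltransferase gene next to Mttp on the far side, had log2 ratios of -0.95 after IR and -0.47 after sham.

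**Figure D4:**
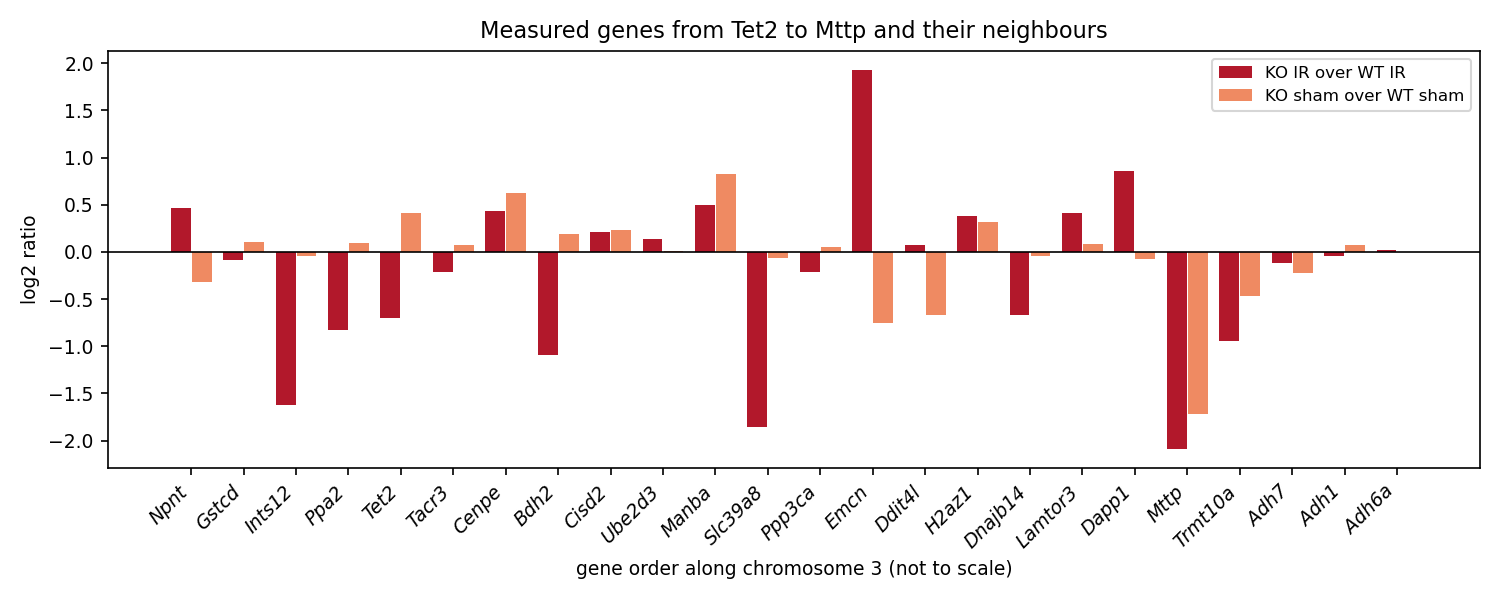
Knockout-labelled over wild type as a log2 ratio (vertical axis) after IR and after sham for the measured genes from Tet2 to Mttp and their neighbours, in gene order on chromosome 3. Mttp has bars of -2.09 and -1.71, and no other gene plotted reaches -1 in both.

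Clu was higher after IR in both genotypes. The probe set read for it had a log2 signal of 13.12 in knockout-labelled IR against 10.56 in knockout-labelled sham, and 12.19 in wild-type IR against 10.86 in wild-type sham. Both IR arrays lay above both sham arrays on all 4 probe sets, with knockout-labelled IR the highest and knockout-labelled sham the lowest. IR over sham was 4.76-fold to 6.12-fold in the knockout-labelled pair and 2.52-fold to 2.81-fold in wild type over the 4 probe sets. The responses differed by 0.76 to 1.23 on the log2 scale, and the knockout-labelled array was higher by 0.58 to 0.93 after IR. Markers of injured tubules were higher as well: 12 of 12 measured markers were 2-fold or more higher in the knockout-labelled pair and 8 of 12 in the wild-type pair. The summed linear signal of that list was 68876 in knockout-labelled IR, 3973 in knockout-labelled sham, 39128 in wild-type IR and 6167 in wild-type sham; its part in the Clu values was not tested.

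Apoe and Apod stayed under 2-fold in all 5 comparisons. Apoe, the ligand that brings lipoprotein remnants to their receptors, had a log2 signal of 9.44 in knockout-labelled IR against 9.21 in knockout-labelled sham, and 8.75 in wild-type IR against 9.51 in wild-type sham. Wild-type IR was the lowest array, 1.70-fold below wild-type sham, and the difference of responses was 0.99, or 1.99-fold. Macrophages, fat and stroma also express Apoe. Of the macrophage list, 4 of 10 measured genes were lower after IR in wild type and 1 was higher, with a summed linear signal of 2196 in knockout-labelled IR, 4748 in knockout-labelled sham, 2345 in wild-type IR and 4566 in wild-type sham. The adipose sum was 10196 in knockout-labelled IR, 1754 in knockout-labelled sham, 1016 in wild-type IR and 7375 in wild-type sham, and the fibroblast and mural cell sum was 8216 in knockout-labelled IR, 5245 in knockout-labelled sham, 3666 in wild-type IR and 6587 in wild-type sham. After IR 6 of 6 measured adipose genes were higher in the knockout-labelled pair and 4 of 7 lower in wild type, and of 11 stromal genes 3 were higher and 2 lower in the knockout-labelled pair and 0 higher and 5 lower in wild type. The adipose and stromal sums were lowest in wild-type IR, as Apoe was, but highest in knockout-labelled IR, where Apoe was highest in wild-type sham. The endothelium sum was lowest in wild-type IR too. It was 2696 in knockout-labelled IR, 3397 in knockout-labelled sham, 1237 in wild-type IR and 3504 in wild-type sham. The part of these lists in the Apoe values was not tested. Apoc1, the neighbour of Apoe on chromosome 7, had log2 signals of 6.84 in knockout-labelled IR against 6.26 in knockout-labelled sham, and 6.20 in wild-type IR against 7.47 in wild-type sham. Apod, a carrier of small lipids from the lipocalin family, had log2 signals between 5.64 and 6.07 on its 2 probe sets, just under, at or just over the floor of 5.72, so no direction is read from them.

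Set side by side, the 8 members had 1 gene higher (Clu; 6.06% of all measured genes were higher) and 1 lower (Apom; 6.89%) in the knockout-labelled response, or 2 in all (12.9%), with a median log2 ratio of -0.05 against -0.02 over all genes. In the wild-type response 4 of 8 were higher, where 2.06% of all genes were, and 0 were lower (2.18%), or 4.24% in either direction, with a median of 0.71 against 0.02. Between the sham arrays 2 were lower, Apom and Mttp (0.846% of all genes), and 0 higher (0.186%), or 1.03% of all genes in either direction. Between the IR arrays 5 were lower, Apoa1, Apoa4, Apoc3, Apom and Mttp (3.99%), and 0 higher (3.68%), or 7.68% in either direction, with a median of -1.25 against -0.01. For the difference of responses 3 were lower (4.77%) and 1, Clu, higher (4.75%), or 9.52% of all genes in either direction. These comparisons share arrays: each response uses the sham and the IR array of its genotype, which also enter the comparisons between genotypes. The members were chosen with earlier results of these data known, so their counts beside the shares of all genes are a description and no test.

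Other genes of lipoprotein metabolism were read from lists. The list of other apolipoproteins also holds genes of other kinds, such as Apobec1, Apoo, Apool and Pon1. Of this list, 1 of 17 measured was higher and 2 lower after IR in the knockout-labelled pair, and 1 of 16 higher and 1 lower in wild type. The 2 lower in the knockout-labelled pair were Apob and Apoo, with log2 ratios of -1.54 and -1.30. Saa1, the acute phase protein serum amyloid A, was below the floor after sham and higher after IR in both, by at least 4.21-fold in the knockout-labelled pair and at least 4.26-fold in wild type. Apob, the core protein of very-low-density particles and the cargo of Mttp, had a log2 signal of 5.73 in knockout-labelled IR against 7.26 in knockout-labelled sham, and 8.67 in wild-type IR against 7.92 in wild-type sham. The knockout-labelled IR array was the lowest, at the floor, and 7.67-fold below wild-type IR; the other probe set of Apob gave a log2 ratio of -0.74 there. Apoh, a phospholipid-binding plasma protein, was 2.49-fold lower in knockout-labelled IR than in wild-type IR, with -0.51 on the log2 scale on its other probe set. The gene lower after IR in wild type was Apoc1, by 2.40-fold.

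In the list of lipoprotein assembly and secretion, 1 of 24 genes was higher and 4 lower after IR in the knockout-labelled pair, and 1 of 23 higher and 0 lower in wild type. Plin2, which coats lipid droplets, was higher in both, by 7.03-fold in the knockout-labelled pair and 5.24-fold in wild type. The lower genes of the knockout-labelled pair were Cideb, a protein that helps to lipidate very-low-density particles (3.22-fold), the carboxylesterases Ces1d (2.69-fold) and Ces1f (2.52-fold) and the acyltransferase Mogat2 (2.21-fold). Tm6sf2, a membrane protein needed to lipidate Apob particles, was 2.29-fold lower in knockout-labelled IR than in wild-type IR.

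Among remodelling genes, Angptl4, an inhibitor of lipoprotein lipase, was 3.21-fold higher and Lpl, the lipase itself, 3.07-fold lower after IR in the knockout-labelled pair, while 0 of 11 measured genes reached 2-fold in wild type. The phospholipid transfer protein Pltp had log2 ratios of -0.55 in the knockout-labelled pair and -0.57 in wild type, and Lcat, which esterifies cholesterol on high-density particles, was below the floor in all arrays. Among efflux and uptake genes 3 of 22 were higher and 4 lower in the knockout-labelled pair and 0 higher and 3 lower in wild type. The uptake receptors Lrp2 and Cubn were 4.39-fold and 3.60-fold lower in the knockout-labelled pair, and 1.67-fold and 1.12-fold lower in wild type. The other probe sets of Lrp2 in the knockout-labelled pair reached up to -0.23 on the log2 scale. Lower in wild type were the cholesterol transporter Abcg1 (2.71-fold, with -0.16 on the log2 scale on its other probe set) and the sphingosine-1-phosphate receptors S1pr1 (2.04-fold) and S1pr3 (2.03-fold, with other probe sets reaching -0.37). Abca1, which hands cholesterol to Apoa1, had log2 ratios of 0.44 in the knockout-labelled pair and 0.08 in wild type.

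Of 20 listed factors known to control apolipoprotein genes, 14 were on the array. In the knockout-labelled response 0 of 14 reached 2-fold, where 12.9% of all measured genes did. In wild type 0 of 13 did, where 4.24% of all measured genes did. In a list this short, a count of 0 does not show that the factors were unchanged. Hnf4a, an activator of the Apoa1, Apoc3 and Apoa4 cluster in liver and intestine, had a log2 signal of 12.62 in knockout-labelled IR against 13.22 in knockout-labelled sham, and 13.12 in wild-type IR against 13.02 in wild-type sham. Ppara, the fatty acid receptor, had log2 ratios of IR over sham of 0.20 in the knockout-labelled pair and 0.71 in wild type, and Creb3l3, an activator of Apoa4 in liver, 0.07 and 0.06. After IR 5 of 12 measured Ppara targets rose 2-fold or more in the knockout-labelled pair and 1 fell (list median 0.57). In wild type 6 of 11 rose and 0 fell (list median 1.11). The shares of all measured genes were 6.06% and 6.89% in the knockout-labelled pair, and 2.06% and 2.18% in wild type. Set directly against wild-type IR, knockout-labelled IR had a list median of -0.006: 4 of 12 targets lay 2-fold or more below and 2 above. Each fold is within a genotype, and the sham arrays themselves differed by -1.39 to 0.84 on the log2 scale over this list. The fatty acid hydroxylase Cyp4a14 was 8.71-fold higher in the knockout-labelled pair and 54.7-fold higher in wild type, and Vnn1, a pantetheinase, 1.16-fold and 2.82-fold. Pdk4, a kinase that holds back pyruvate oxidation, was 9.92-fold higher in the knockout-labelled pair and 1.13-fold lower in wild type. The adipose sum was also higher after IR in the knockout-labelled pair and lower in wild type. Its part in the Pdk4 and Angptl4 values was not tested.

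**Figure D5:**
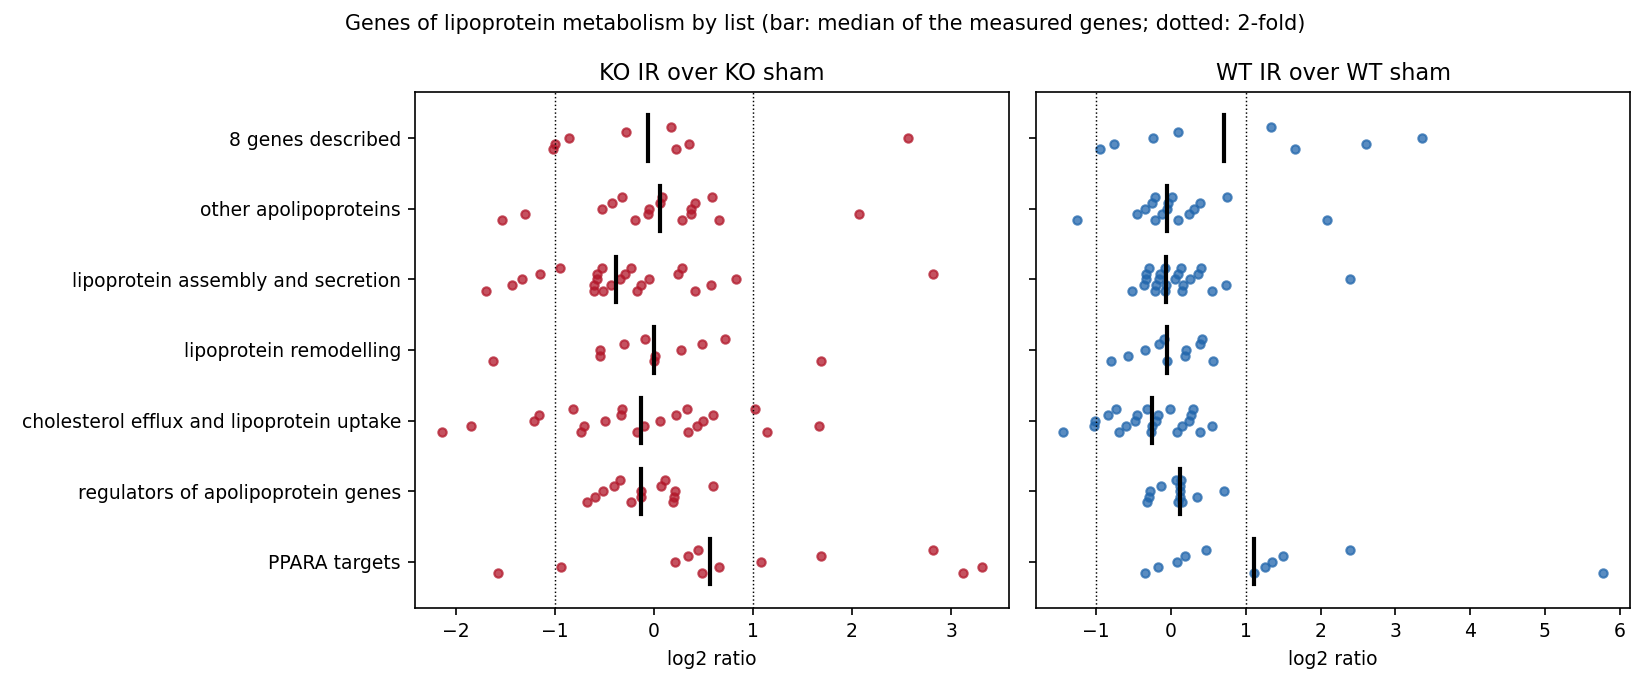
Log2 ratio of IR over sham (horizontal axis) of each measured gene of 7 lists in the knockout-labelled pair and in the wild-type pair, 1 point per gene, with the list median as a bar. In the wild-type pair 4 of the 8 members lie beyond 1, while the medians of the other apolipoprotein, assembly, remodelling and uptake lists lie between -0.26 and -0.05, that of the regulators at 0.12 and that of the PPARA targets at 1.11, above the 0.71 of the members.

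Proximal tubule markers were lower after IR, 9 of 13 in the knockout-labelled pair and 2 of 13 in wild type, with medians of -1.24 and -0.50, and 0 of 13 differed 2-fold between the sham arrays. Of the other marker lists, 5 of 7 adipose genes (median -1.79), 4 of 7 urothelium genes (median -1.52), 3 of 12 injured tubule genes and 1 of 7 hepatocyte genes were lower in the knockout-labelled sham array than in the wild-type one, as Apom and Mttp were. The part of these lists in the Apom and Mttp values was not tested. The summed linear signal of the proximal tubule list was 79916 in knockout-labelled IR, 159451 in knockout-labelled sham, 118562 in wild-type IR and 159458 in wild-type sham. The part of tubule content in the values of the members, in either genotype, was not tested.

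By distance between log2 signals centred on each gene's mean of the 4 arrays, the gene nearest to Apoa4 among 13808 was Apoc3, at 1.04, followed by the collagen Col27a1 at 1.45 and Reep6 at 1.72. Col27a1 and Reep6 were also the nearest to Apoc3, at 0.74 and 0.83, with the acyl-CoA thioesterase Acot3 at 0.97. Nearest to Apoa1 were Serpina10 at 0.11, Vnn1 at 0.13 and the growth factor Fgf18 at 0.27. Nearest to Apom were Cyp2d12 at 0.24, Lypd2 at 0.30 and Dipk2a at 0.34. Mttp was nearest to BC040756 and Gm6958, both at 0.50 and both below the floor in the knockout-labelled arrays, and to the peroxisomal lyase Hacl1 at 0.60. Clu was nearest to Pea15a at 0.09, Plp2 at 0.16 and the metallothionein Mt1 at 0.17. With 4 arrays such a likeness rests on 4 points and is a description of these arrays.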

How the data were processed

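Kidney RNA pooled from 3 mice per group was measured on 4 Affymetrix arrays, 1 per group. The authors deposited log2 signals for 45037 probe sets; the unit was read from their range, and the columns are not centred per probe set. Per the submitters' processing notes the authors used MAS5; its version, scaling and filters are not given in the sources used here. Gene symbols came from the array annotation: 34945 have 1 symbol, 932 several and 9160 are not listed. Each gene was read from the probe set with the highest mean (an _x_at one, which can bind other transcripts, only without another), and all 18 member probe sets are described. Signals below the floor, the 40th percentile of all signals (log2 5.72, linear 52.8), were set to it; folds from the floor are written "at least". A gene counted as measured if 1 array of a comparison reached the floor, and as higher or lower at 2-fold. With 1 array per group there is no test. Genes named from the lists are those past 2-fold, up to 5 per list and comparison, and a fixed set. The members, 6 pathway lists and 9 marker lists were chosen with earlier results of these data known. The counting was tested on simulated data with changes past 2-fold, signals higher than several members have and noise below the technical SD. That checks the code and not the values of the members. Gene order comes from RefSeq, GRCm38.p6, used for order only. Python 3.11.15, numpy 2.4.6 and pandas 2.3.3 were used. Alternatives were no floor, a floor at the 20th percentile, a pseudocount of 32, the median over probe sets, quantile normalization, median centring and the other sham array as control.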

Additional observations from a re-analysis of the deposited data

Results flagged for a closer look

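Apoa4 and Apoc3 had IR responses of opposite direction in the genotypes, each larger than the technical SD of its own pair when set against the sham array of its genotype. Against the sham array of the other genotype, the knockout-labelled log2 ratio was -0.69 for Apoa4 and -0.25 for Apoc3, the second under the technical SD of 0.39. The difference of responses, knockout-labelled minus wild type, was -4.22 on the log2 scale for Apoa4, from -0.86 in the knockout-labelled pair and 3.36 in wild type. For Apoc3 it was -3.60, from -0.997 in the knockout-labelled pair and 2.60 in wild type. With 1 array per group the difference was not tested.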

How the results depend on the processing

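No paired analysis was possible because each group is 1 array. The counts of members past 2-fold were 4 in the wild-type response, 2 between the sham arrays, 5 between the IR arrays and 4 in the difference of responses under each of the 6 alternatives of floor, probe set and scaling; with the other sham array as control the wild-type count was 5. The knockout-labelled count of 2 was 1 with a pseudocount of 32 instead of a floor, where Apom was at -0.96, and 3 with the median over probe sets, where Apoa4 was -1.14, with quantile normalization and median centring, where Apoc3 was -1.01, and with the other sham array, where Mttp was -1.99. Of 256 recomputed member ratios 240 moved by less than the technical SD and 16 by more, 9 of these with the other sham array. Of the ratios past 2-fold, 0 changed direction. Many of the 240 could not have moved. Only Apod had signals below the floor, so removing or lowering the floor left every other member as it was. The median over probe sets cannot change Apoc3 or Apoe, which have 1 probe set each. The 240 are thus no measure of how firm the ratios are. Low signals limit Apod, whose probe sets lie around the floor, and Apoa1, whose fold in wild type ranged over 3.14 to 6.99 with the probe set.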

Other observations

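The genes around Apoe on chromosome 7, looked up after the values of Apoe were seen, differed among themselves. Nectin2, a cell adhesion gene, had log2 ratios of IR over sham of 1.20 in the knockout-labelled pair and -0.13 in wild type, and Bcl3, a cofactor of NF-kappaB, 1.51 and 1.23. Relb, a subunit of NF-kappaB, had 1.18 and 0.54, and Tomm40, a mitochondrial import channel, 0.86 and -0.20. Apoc2, the activator of lipoprotein lipase, was at the floor in 3 arrays and had a log2 signal of 6.00 in knockout-labelled IR, and Apoc4 lay between 5.94 and 6.16 in all 4.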
